A study of Arabidopsis thaliana with 3 samples.

Results

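PISTILLATA (PI) and APETALA3 (AP3) are the B-class MADS-domain proteins of Arabidopsis thaliana that together specify petals and stamens. Loci bound by them in young flowers and annotated as cell wall enzymes or related proteins are described here. A locus was taken when the authors' target table of either factor listed it and its annotation text held 1 of 7 words (pectin, pectate, polygalacturonase, expansin, xyloglucan, cellulose or glycosyl hydrolase) and not the word kinase. This gave 62 loci of the 3132 listed for PI or AP3. The loci were thus selected on the authors' peak calls and scores, so the listing and the peak scores of these loci are given as descriptions and were not tested.

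Binding was measured by chromatin immunoprecipitation and sequencing (ChIP-seq) with an anti-GFP antibody. There were 3 libraries, 1 per group: plants with a GFP-tagged PI (PI-GFP), plants with a GFP-tagged AP3 (AP3-GFP), and a negative control without a tagged factor. All were in the Ler background and carried 35S:AP1-GR ap1-1 cal-1. In this system the meristem identity mutations ap1-1 and cal-1 hold plants at the inflorescence meristem stage, and dexamethasone activates the AP1-GR fusion, expressed from the broadly active 35S promoter, so that many flowers start to develop at once. Plants of about 4 weeks, grown at 20 degrees Celsius, received 10 µM dexamethasone and were sampled 4 days later, at about floral stage 4 to 5. Whole flowers were used, so binding cannot be assigned to a cell type, and the files hold no expression values against which tissue markers could be checked. Both factors were compared with the same negative control, whose own values were not analysed here.

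The plant cell wall is a network of cellulose microfibrils held in a matrix of hemicelluloses, such as xyloglucan, xylan and mannan, and of pectin. Growing cells loosen it with expansins, which act without cutting bonds, and with enzymes that cut and rejoin xyloglucan. Pectinesterases strip methyl groups from pectin and are blocked by inhibitor proteins, and polygalacturonases and pectate lyases cut the demethylated chain. In flowers these proteins are known for their part in organ outgrowth, petal expansion, pollen development and organ separation.

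For each locus the files give the highest peak score inside the gene, in 3 upstream windows (0 to 1000, 1000 to 2000 and 2000 to 3000 bp from the gene) and 0 to 1000 bp downstream. The score has no unit and no fixed range. It ranks peaks within a library, and its size cannot be compared between the PI and AP3 lists. No read counts were analysed here, so the depth behind a score is unknown, and with 1 library per factor no value can be checked against a replicate. Coordinates are those of the authors' files, on TAIR10.

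Of the 62 loci, 48 were listed for PI, 40 for AP3 and 26 for both, which left 22 listed for PI only and 14 for AP3 only. The share listed for both was 41.9% (exact 95% interval 29.5 to 55.2, counting error over loci only), and over all listed loci it was 49.7%. For reference, 8.69% of all protein-coding genes were listed for PI, 7.26% for AP3 and 10.6% for either. In the classes named below, 4 of 5 expansin and xyloglucan loci, 5 of 8 loci of polysaccharide synthesis and 5 of 10 pectin-cutting loci were listed for both. The 7 pectinesterases and 4 pectinesterase inhibitors included 1 such locus.

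The annotation was read to check the label. It named a wall enzyme, an inhibitor or a glycosyl hydrolase for 54 loci. The other 8 matched because a similarity statement or another phrase held 1 of the words, and they are described last. Among the 54 the matching word did not always name the polymer concerned. The xylan genes GUT1 and F8H matched on pectin and IRX9 on cellulose. Some of the 20 glycosyl hydrolases, such as invertases and beta-glucosidases, belong to families with substrates other than wall polymers, so the set is wider than wall enzymes alone.

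The scores of the 62 loci began near the lower end of each list. They stayed well below the highest scores of the lists, 9217 for PI and 9926 for AP3. In the PI list they ran from 28.8 to 2299 with a median of 73.1, and the median over all PI-listed loci was 87.7. In the AP3 list they ran from 27.6 to 981 with a median of 50.1, against 58.2 over all AP3-listed loci. The top 25.0% of the PI list held 8 of 48 loci, or 16.7% (7.48 to 30.2). The top 25.0% of the AP3 list held 10 of 40 loci, or 25.0% (12.7 to 41.2). The median score of the peak list was reached by 21 of 48 loci for PI, or 43.8%, against 50% of all PI-listed loci, and by 16 of 40 for AP3, or 40.0%, against 49.8%. Of the loci listed for both, 18 of 26 reached that median for PI and 13 of 26 for AP3. Of those listed for 1 factor, 3 of 22 for PI and 3 of 14 for AP3 did so. Over all listed loci the scores lay the same way: the PI median was 130 for loci listed for both and 53.1 for PI only (members 121 and 50.6), and the AP3 median was 80.3 and 37.9 for AP3 only (members 60.3 and 41.3). The lowest PI score in the set was 28.77, at CESA3, close to the 25.3 with which the PI list ended, and the lowest AP3 score was 27.55, at AT4G29360, where the list ended at 26.6.

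**Figure D1:**
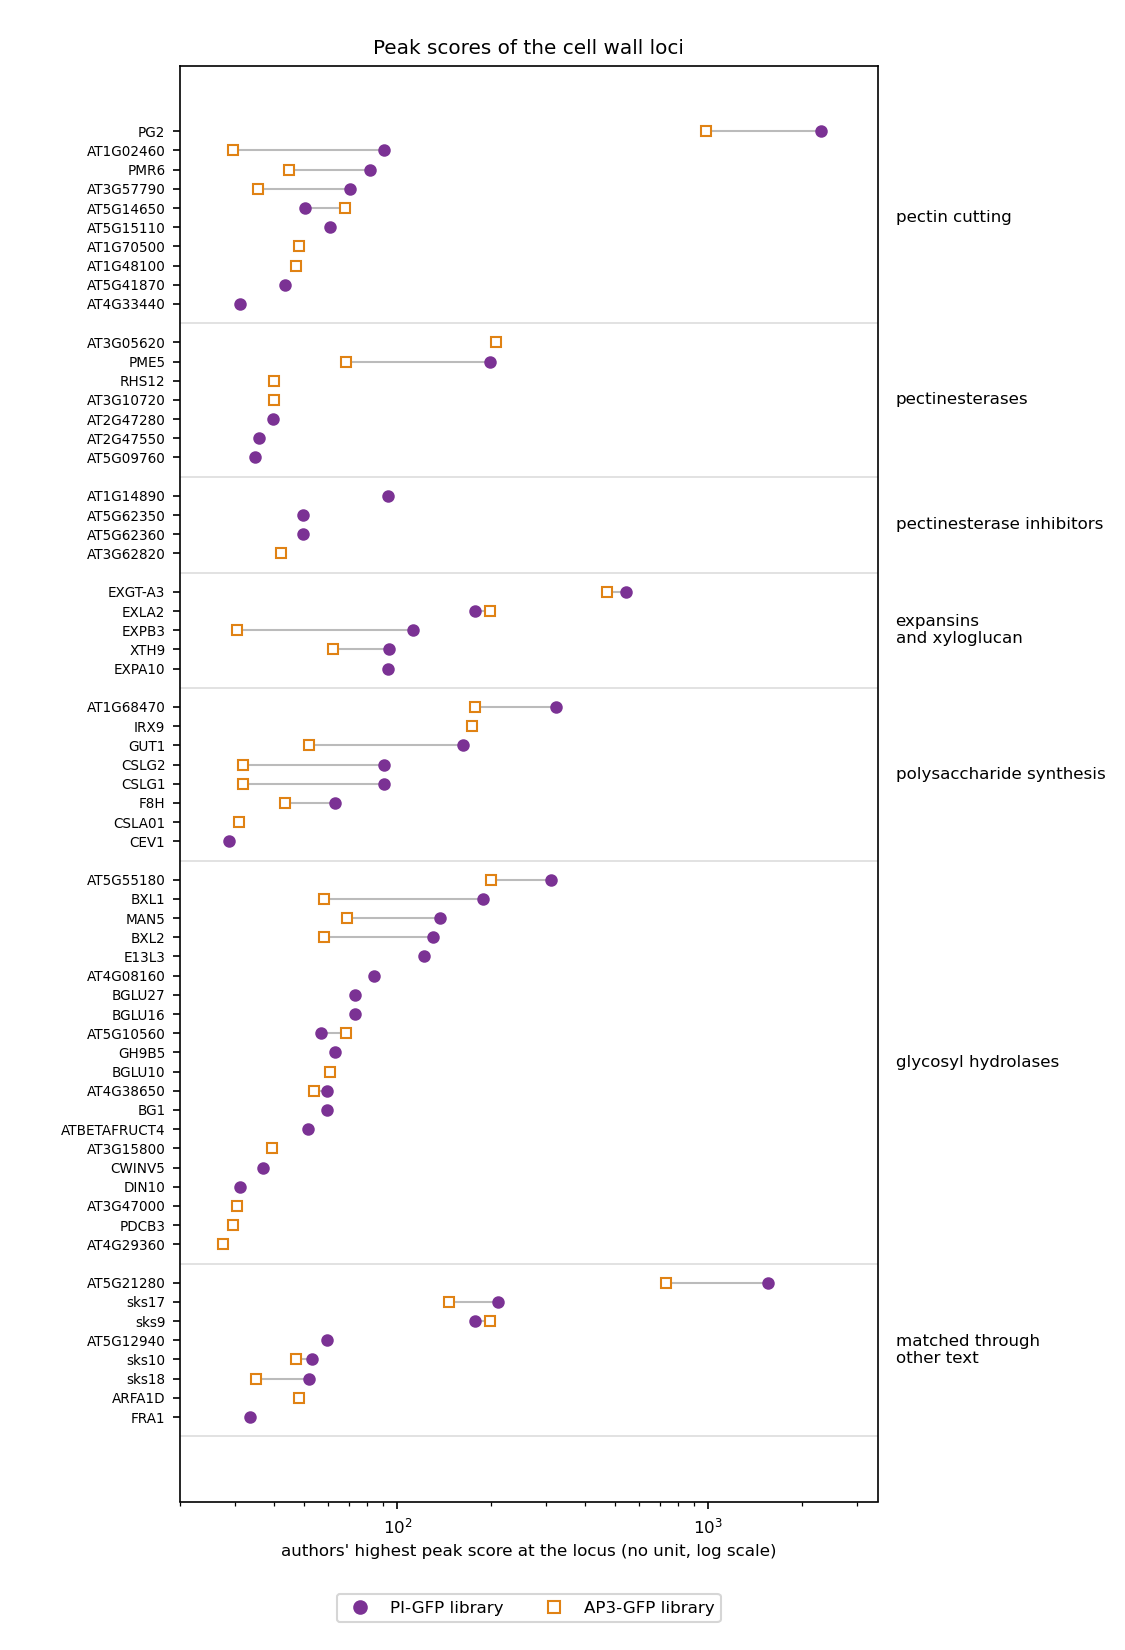
Highest score of each of the 62 loci in the PI-GFP (filled circles) and AP3-GFP (open squares) libraries, by class, on a log axis; a line joins both scores of a locus, and a locus with 1 symbol was listed for that factor only. PG2 and AT5G21280 stand far to the right in both libraries, and most loci listed for 1 factor lie at the left; CEV1 is CESA3, E13L3 is PDCB2 and EXGT-A3 is XTH27.

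Among the pectin-cutting loci, PG2 (AT1G70370) had by far the highest scores. PG2 encodes a BURP-domain protein of the non-catalytic polygalacturonase subunit type. Its PI score was 2299, rank 11 of 2544 listed loci, and its AP3 score was 981, rank 33 of 2146. Both scores were in the window 1000 to 2000 bp upstream. The PI peak lay at chr1:26516650-26517384 and the AP3 peak at chr1:26516684-26517293, and both had their maximum at position 26516985. No other listed locus had this peak in a window.

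The other 9 pectin-cutting loci had PI scores of at most 90.4 and AP3 scores of at most 68.0. The polygalacturonase AT1G02460 scored 90.4 for PI and 29.7 for AP3 in the window 2000 to 3000 bp upstream. Its PI peak was 285 bp wide and its AP3 peak 97 bp, and again both maxima fell on the same base. PMR6 (AT3G54920), a pectate lyase-like protein known as needed for susceptibility to powdery mildew, was listed for both factors inside the gene, with 81.9 for PI and 44.7 for AP3. The highest peaks of the 2 libraries did not overlap, and their maxima were 813 bp apart. The AP3 peak did overlap another, lower PI peak, of score 46.9. AT3G57790, a polygalacturonase, had 1 wide PI peak of 797 bp with a score of 70.3 that overlapped 2 separate AP3 peaks with scores of 35.7 and 29.1.

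AT5G14650, also a polygalacturonase, stood higher in the AP3 list than in the PI list. It scored 50.6 for PI, at 75.2% of the way down that list, and 68.0 for AP3, at 44.6%. The lists differ in length, so such positions describe each list and are no measure of relative binding. The remaining pectin-cutting loci were listed for 1 factor, each below the median of its peak list. For PI these were the pectate lyase AT5G15110 at 61.0 and the polygalacturonases AT5G41870 at 43.7 and AT4G33440 at 31.3. For AP3 they were the polygalacturonases AT1G70500 at 48.3 and AT1G48100 at 47.3.

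Among the pectinesterases, PME5 (AT5G47500) was the single locus listed for both factors. PME5 is known from work on the shoot apex, where pectin demethylation accompanies wall softening and organ initiation. It scored 199 for PI and 68.3 for AP3, 0 to 1000 bp upstream. The PI peak at chr5:19273529-19273959 and the AP3 peak at chr5:19273538-19273824 had maxima 16 bp apart. AT5G47510 had the same peaks in a window, so they cannot be assigned to PME5 alone.

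AT3G05620, a pectinesterase, had the highest score of any locus in the set listed for AP3 only. It scored 207, rank 300 of the AP3 list, with a peak at chr3:1631660-1632087 that was listed 0 to 1000 bp upstream. The nearest PI peak was 8550 bp away. The neighbouring pectinesterases RHS12 (AT3G10710) and AT3G10720 shared 1 AP3 peak of score 40.1, listed inside RHS12 and downstream of AT3G10720. The pectinesterases AT2G47280, AT2G47550 and AT5G09760 were listed for PI only, with low scores of 39.9, 35.9 and 34.9.

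Of the 4 proteins annotated as invertase or pectin methylesterase inhibitors, 3 were listed for PI only and 1 for AP3 only. AT1G14890 scored 93.6 for PI, 0 to 1000 bp upstream, which was above the median of 88.1 of the PI peak list. AT5G62350 and AT5G62360 are neighbours and shared 1 PI peak of 188 bp and score 49.55. AT3G62820 scored 42.4 for AP3, 2000 to 3000 bp upstream.

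All 5 expansin and xyloglucan loci had PI scores above the median of the PI peak list. XTH27 (AT2G01850, symbol EXGT-A3), an enzyme of the family that cuts and rejoins xyloglucan, scored 543 for PI, rank 179, and 474 for AP3, rank 106. Its peaks lay 1000 to 2000 bp upstream at chr2:383149-383660 for PI and chr2:383174-383673 for AP3. Their maxima were 1 bp apart, and no other listed locus had them in a window. XTH9 (AT4G03210), of the same family, scored 94.3 for PI and 62.3 for AP3, 0 to 1000 bp upstream, with maxima 23 bp apart.

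The 3 expansins differed from each other. EXLA2 (AT4G38400), an expansin-like protein, scored 178 for PI and 199 for AP3 at chr4:17979787-17980316 and chr4:17979779-17980355. This peak lay 0 to 1000 bp upstream of EXLA2 and also in windows of 4 other listed loci, among them the member sks9. EXPB3 (AT4G28250), a beta-expansin, stood much higher in the PI list. Its PI peak inside the gene scored 112 and was 829 bp wide, at 40.3% of the way down the list. The AP3 peak scored 30.5 and was 67 bp wide, at 93.5%. Another AP3 peak, of score 28.4, overlapped the same PI peak, and a lower PI peak of 29.4, listed 2000 to 3000 bp upstream, overlapped no AP3 peak. EXPA10 (AT1G26770), an alpha-expansin, was listed for PI only, with a score of 93.6 at chr1:9258536-9258854, 0 to 1000 bp upstream. That peak lay 4986 bp from the peak ranked 3 in the PI list, which scored 2607 and was listed at AT1G26771 and AT1G26773. The nearest AP3 peak, 5331 bp away, was at the same 2 loci and scored 1417.

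**Figure D2:**
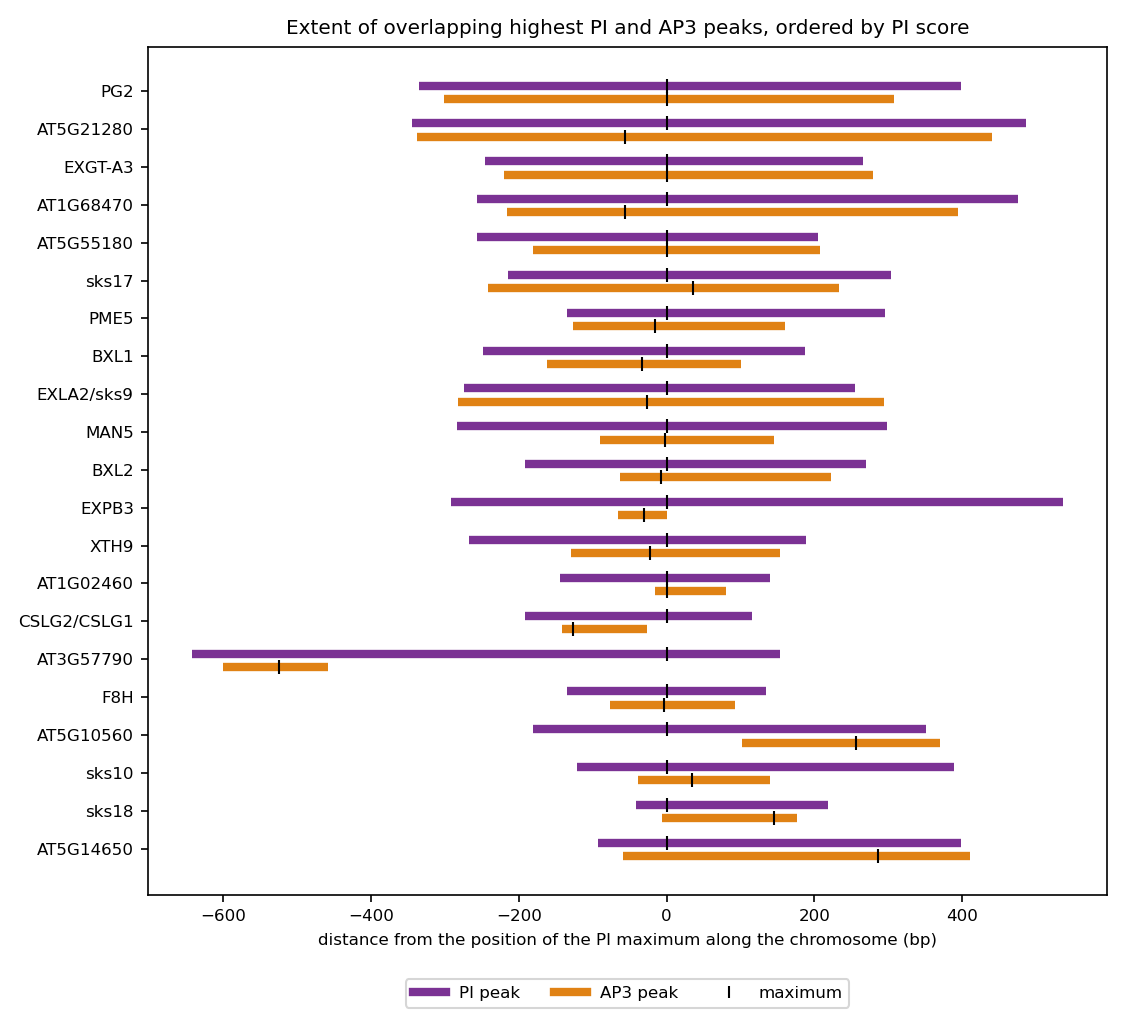
Extent of the highest PI (purple) and AP3 (orange) peaks for the 21 distinct overlapping pairs, in bp from the PI maximum, with black marks at the maxima and loci ordered by PI score. The PI bar is the longer in 20 pairs, EXLA2/sks9 being the exception, and the marks lie at most 50 bp apart in 14 pairs. Wider PI peaks are not particular to these pairs. Over all loci listed for both, the median width was 407 bp for PI and 300 bp for AP3. The count of near marks is not given over all such loci.

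Of the 8 loci of polysaccharide synthesis, 5 were listed for both factors. The highest was AT1G68470, a glycosyl transferase of the exostosin family, with 323 for PI and 178 for AP3, 2000 to 3000 bp upstream. The peaks lay at chr1:25680969-25681700 and chr1:25681009-25681620. A second PI peak of score 188, 1000 to 2000 bp upstream, overlapped no AP3 peak.

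Genes for xylan synthesis differed in their listing. GUT1 (AT5G61840, also known as IRX10-like), a glycosyl transferase of the xylan backbone, had 3 upstream peaks in each library. In the window 2000 to 3000 bp upstream the scores were 135 for PI and 51.9 for AP3, and the maxima fell on the same base. In the window 1000 to 2000 bp upstream they were 163 and 32.4, with maxima 7 bp apart. In the window 0 to 1000 bp upstream they were 60.6 and 30.5, with maxima 157 bp apart. The middle peak was thus the highest of the 3 in the PI library and the farthest upstream the highest in the AP3 library. AT5G61850 also had the highest peaks in its windows, so they cannot be assigned to GUT1 alone.

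IRX9 (AT2G37090), another glycosyl transferase of xylan synthesis, was listed for AP3 only. It scored 173, rank 377, at chr2:15590748-15591125, 1000 to 2000 bp upstream, and the nearest PI peak was 33676 bp away. F8H (AT5G22940), a homologue of the xylan gene FRA8, scored 63.0 for PI and 43.7 for AP3 inside the gene, with maxima 4 bp apart.

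**Figure D3:**
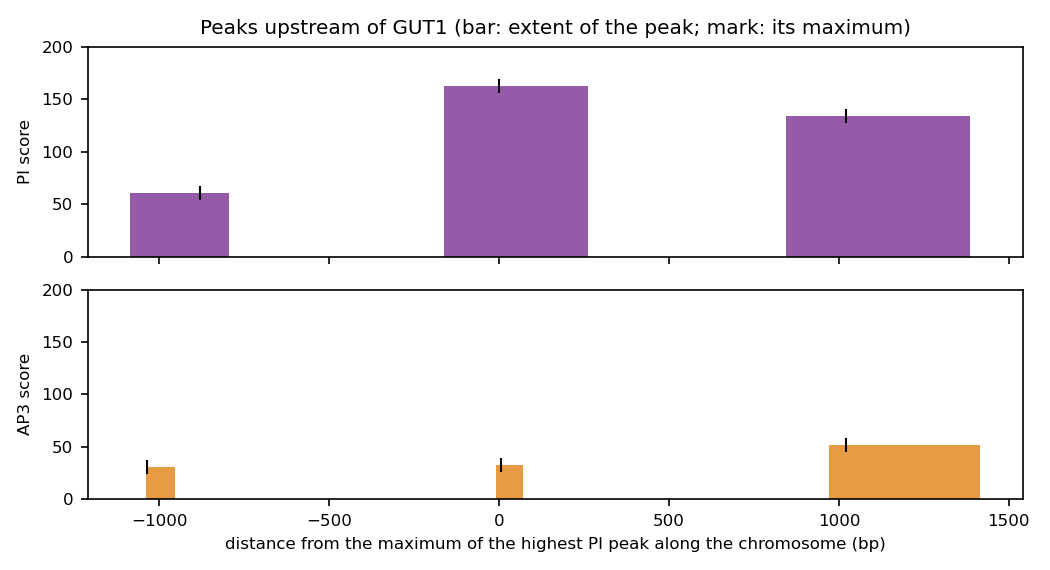
Peaks in the upstream windows of GUT1, in bp from the maximum of its highest PI peak, with the PI score above and the AP3 score below; bars span the peaks and marks show their maxima. Each of the 3 PI peaks has an AP3 peak over it, and the highest peak is the middle bar for PI (163) and the right bar for AP3 (51.9).

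The 4 cellulose synthase and cellulose synthase-like members had PI scores of at most 90.3 and AP3 scores of at most 31.9. CESA3 (AT5G05170, symbol CEV1), a catalytic subunit of primary-wall cellulose synthase, was listed for PI only, with 28.8 at 0 to 1000 bp upstream, the lowest PI score in the set. CSLG2 (AT4G24000) and CSLG1 (AT4G24010), cellulose synthase-like neighbours, shared 1 PI peak of 90.3 and 1 AP3 peak of 31.9. The shared peak stood at 48.6% of the way down the PI list and 90.5% down the AP3 list. CSLA01 (AT4G16590), of a subfamily known for mannan synthesis, scored 30.9 for AP3 inside the gene.

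Of the 20 glycosyl hydrolases, 6 were listed for both factors, 9 for PI only and 5 for AP3 only. The highest was AT5G55180, of glycosyl hydrolase family 17, whose enzymes cut beta-glucans such as callose. It scored 313 for PI and 200 for AP3, 0 to 1000 bp upstream, at chr5:22388264-22388726 and chr5:22388341-22388728, and both maxima fell on the same base. Of the other 5 loci annotated to family 17, 2 were listed for PI only and 3 for AP3 only. They include callose-binding proteins, so the annotation does not make each of them an enzyme. PDCB2 (AT5G08000, symbol E13L3), a callose-binding protein of plasmodesmata, scored 122 for PI, 2000 to 3000 bp upstream, the highest score among the members listed for PI only. Its relative PDCB3 (AT1G18650) was listed for AP3 only, at 29.5 inside the gene.

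Beta-xylosidases and a mannanase were among the loci bound in both libraries. BXL1 (AT5G49360), a beta-xylosidase of the extracellular matrix, scored 188 for PI and 58.2 for AP3 downstream of the gene. BXL2 (AT1G02640), its relative, scored 130 and 58.3 inside the gene, with maxima 7 bp apart. MAN5 (AT4G28320), a mannanase, scored 137 and 68.8, 2000 to 3000 bp upstream, with maxima 2 bp apart. AT5G10560, of family 3, scored 56.8 for PI and 68.4 for AP3 downstream, so it stood at 69.7% down the PI list and 44.1% down the AP3 list.

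The 2 loci of family 10, annotated as glycosyl hydrolases and related to xylanases, showed other arrangements. AT4G38650 had PI peaks downstream (59.5) and inside the gene (28.7). Its AP3 peaks at the same places scored 40.1 and 54.1, so the downstream peak was the higher for PI and the inside peak the higher for AP3. Another AP3 peak of 36.8, 2000 to 3000 bp upstream, overlapped no PI peak. AT4G08160 was listed for PI only, at 84.2 downstream. An AP3 peak of score 129 lay 613 bp from that peak, in the window of no listed locus, so a listing for PI only does not mean that AP3 had no peak nearby.

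Most of the remaining glycosyl hydrolases had scores below the median of their peak list. The exception was BGLU10 (AT4G27830), a beta-glucosidase family protein, with 60.8 for AP3, 1000 to 2000 bp upstream, against a peak list median of 58.6. For PI, BGLU27 and BGLU16 shared 1 peak of 73.1, the endoglucanase GH9B5 scored 63.0, BG1 59.4, the vacuolar invertase ATBETAFRUCT4 51.7 and the invertase family member CWINV5 37.0. DIN10 (AT5G20250), of family 36, scored 31.2 with a PI peak of 71 bp. That peak lay 1922 bp from the highest peak of the PI library, which scored 9217 at the gene encoding PI itself. The part of those nearby high peaks in the scores of DIN10 and EXPA10 was not tested. For AP3, AT3G15800 scored 39.6, AT3G47000 30.5 and AT4G29360 27.55.

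The 8 loci that matched through other text included the second highest of the set. AT5G21280, annotated as a hydroxyproline-rich glycoprotein, scored 1551 for PI, rank 28, and 730 for AP3, rank 51, 0 to 1000 bp upstream. The peaks lay at chr5:7265648-7266479 and chr5:7265654-7266432, and no other listed locus had them in a window. Relatives of SKU5, multicopper oxidase-like proteins, made up 4 of the 8, and all 4 were listed for both factors. sks17 (AT5G66920) scored 211 for PI and 146 for AP3 inside the gene. sks9 (AT4G38420) had the peak described at EXLA2, 2000 to 3000 bp upstream. sks10 (AT4G28090) scored 53.1 and 47.1, and sks18 (AT1G75790) 51.9 and 35.05.

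The other 3 had low scores in 1 library. The leucine-rich repeat protein AT5G12940 scored 59.5 for PI and the kinesin FRA1, known for its effect on the orientation of cellulose microfibrils, 33.6 for PI. ARFA1D, a GTPase of vesicle traffic, scored 48.3 for AP3 through the peak it shared with AT1G70500.

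Peaks at loci listed for both factors were wider than those at loci listed for 1. Over distinct peaks, the median PI width was 478 bp at members listed for both and 188 bp at members listed for PI only. Over all listed loci these medians were 407 and 254 bp. The median AP3 width was 278 bp at members listed for both and 198 bp at members listed for AP3 only, and 300 and 155 bp over all listed loci. Among the 26 members listed for both, the highest score was in the same window of both tables in 22, and in 1402 of 1558 over all loci listed for both. The exceptions were GUT1, AT3G57790, AT4G38650 and AT5G14650.

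The highest peaks of the 2 libraries overlapped at 23 of these 26 loci, which made 21 distinct pairs. Their maxima lay a median of 31 bp apart, with quartiles at 4 and 56 bp and the farthest, at AT3G57790, at 524 bp. Neither value is given here over all loci listed for both, so neither sets the members apart. Of all members listed for PI, 25 of 48, or 52.1%, had a highest peak that overlapped an AP3 peak by at least 1 bp, and over all PI-listed loci with a position the share was 59.4%. Of those listed for AP3, 26 of 40, or 65.0%, overlapped a PI peak, against 70.9%. These overlaps describe peak lists that share 1 negative control. A reciprocal overlap of 50% was met by 33.3% of the members listed for PI and 42.5% of those listed for AP3. The shares over all listed loci at this stricter overlap are not given.

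The windows of the highest PI scores were spread as over all PI-listed loci. The window 0 to 1000 bp upstream held 14 of 48, or 29.2% (17.0 to 44.1), against 30.8%, and the gene body held 18.8% against 16.9%. The 2 farther upstream windows held 20.8% (2000 to 3000 bp) and 14.6% (1000 to 2000 bp), against 17.9% and 15.0%, and the downstream window 16.7% against 19.4%. For AP3 the gene body held 13 of 40, or 32.5% (18.6 to 49.1), against 20.8%. The window 0 to 1000 bp upstream held 6 of 40, or 15.0% (5.71 to 29.8), against 27.5%. Both intervals include the share over all listed loci. Of these 40 loci, the farther upstream windows held 20.0% each, against 15.8% and 14.5%, and the downstream window 12.5%, against 21.3%. The gene body share was not high among the higher scores. Among the 16 loci at or above the median of the AP3 peak list, the gene body held 6.25% and the window 0 to 1000 bp upstream 37.5%. The 16 loci are few, and the shares over all AP3-listed loci at this level are not given. Whether the members differ from them here is thus unknown.

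**Figure D4:**
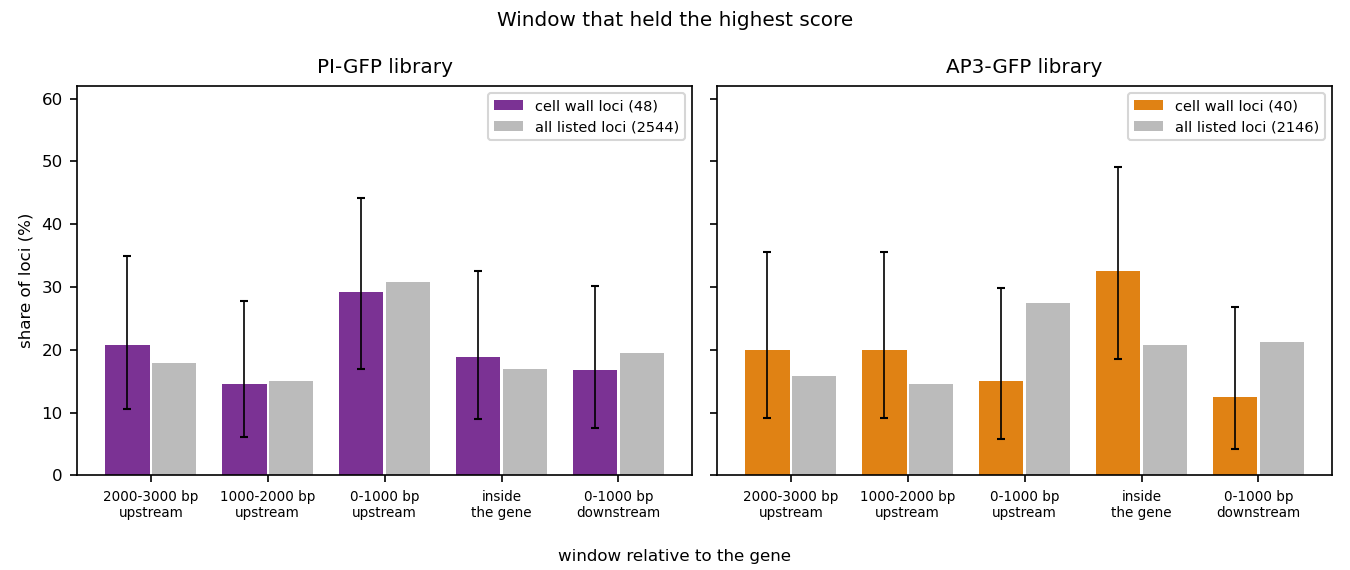
Share of loci (%) whose highest score was in each window, for the 48 PI-listed and 40 AP3-listed cell wall loci (coloured bars, exact 95% intervals) beside all listed loci (grey bars). The PI bars follow the grey bars, and in the AP3 panel the gene body bar is higher (32.5% against 20.8%) and the 0-1000 bp upstream bar lower (15.0% against 27.5%).

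Most peaks could not be assigned to a member alone. The highest PI peak was also in a window of another listed locus for 38 of 48 members, or 79.2%, against 77.7% over all PI-listed loci with a position. For AP3 this held for 35 of 40, or 87.5%, against 81.4%. PG2, XTH27, AT5G21280, AT1G68470 and AT1G02460 were the 5 members whose highest peak in both libraries belonged to no other listed locus. More than 1 window held a score at 4 of 48 members for PI, or 8.33%, against 12.3%, and at 3 of 40 for AP3, or 7.5%, against 11.1%.

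The words of the rule miss wall genes with other annotation, so genes of 10 families were also taken by gene symbol. Genes without such a symbol are left out. Of the 7 pectinesterases in the set only PME5 was counted. None of the 7 members annotated as polygalacturonases was counted. The polygalacturonase family of 10 genes had 1 listed gene, PG2, which is described above as of the non-catalytic subunit type. The families held 217 genes, of which 19 were listed for PI, or 8.76% (5.35 to 13.3), and 17 for AP3, or 7.83% (4.63 to 12.2). All protein-coding genes were listed at 8.69% and 7.26%. Both intervals include the share over all protein-coding genes. Of the expansins, 3 of 37 were listed for PI and 2 for AP3. Of the xyloglucan endotransglucosylase/hydrolases, 3 of 33 were listed for each. The cellulose synthase-like family had the highest AP3 share, with 6 of 30, or 20.0% (7.71 to 38.6), and 4 of 30 for PI, or 13.3% (3.76 to 30.7). Within it CSLG2 and CSLG1 share their peaks in both libraries, so the genes counted are not independent. Above the median of the peak list the AP3 share of this family was 6.67%, against 3.65% of all protein-coding genes. Over all families at this level the shares were 5.07% for PI, against 4.32%, and 3.69% for AP3.

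Of the 23 listed genes in these families, 12 were among the 62 loci and 11 were just outside the words of the rule. Of these, CSLA07, a mannan synthase of the cellulose synthase-like family, scored 214 for PI and 60.5 for AP3, 0 to 1000 bp upstream. CSLA02, of the same subfamily, scored 80.5 and 50.01 inside the gene, and ATCSLA09 97.3 for AP3 alone, inside the gene. XTH28 scored 133 and 104 inside the gene. The endoglucanase GH9B1 scored 85.4 for PI. The other 6 (GATL3, PARVUS, LGT9, GT18, BGAL4 and MUM2) had scores of at most 47.5.

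**Figure D5:**
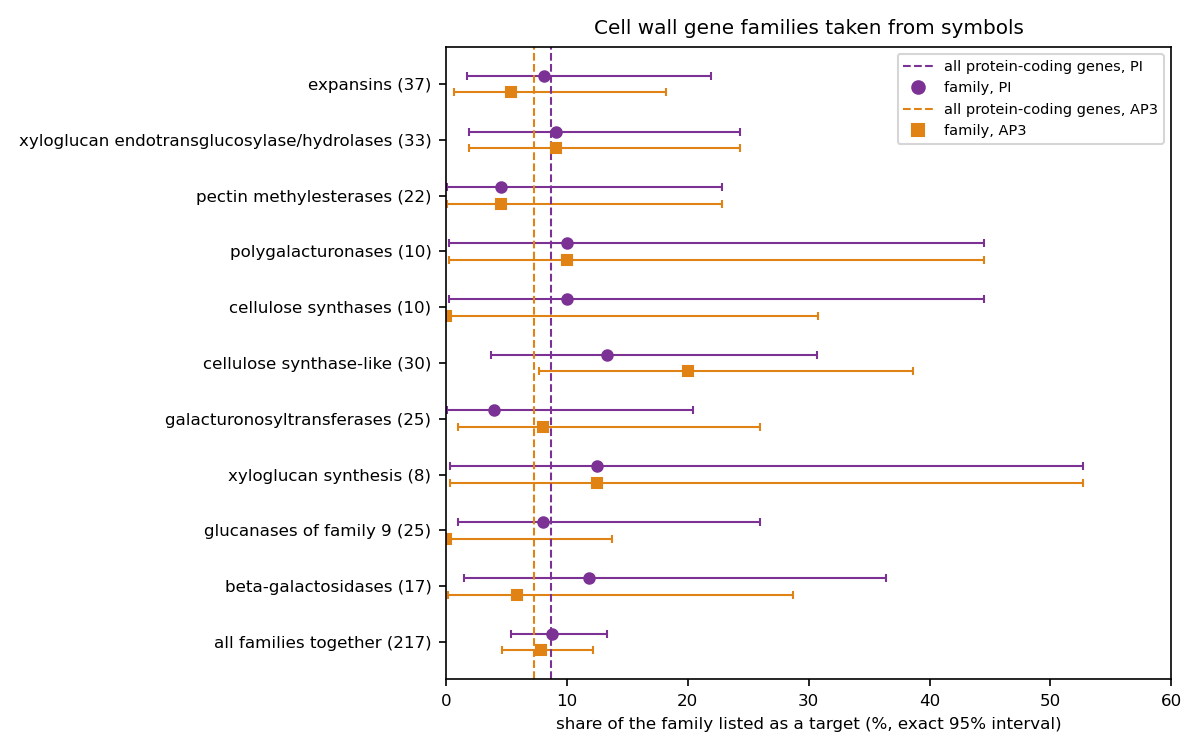
Share (%) of the genes of 10 cell wall families, taken by gene symbol, listed for PI (circles) and AP3 (squares), with exact 95% intervals. The number of genes with such a symbol is in brackets. Dashed lines mark all protein-coding genes (8.69% for PI, 7.26% for AP3). All intervals are wide, and only the AP3 interval of the cellulose synthase-like family (7.71 to 38.6) does not reach its dashed line. That interval counts CSLG2 and CSLG1, which share 1 AP3 peak, as 2 independent genes. It is also 1 of many intervals shown, so it does not set this family apart.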

How the data were processed

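Flowers of 3 ChIP-seq libraries were compared, 1 per group. BWA 0.6.1, SAMtools and TAIR10 appear in the submitters' processing notes. Which program called peaks, at what cutoff and with which gene annotation is not given in the sources used here. For each of the PI and AP3 libraries the authors deposited peaks (position, width, maximum and a score) and a gene table with the highest score in 5 windows. The score was used as deposited, to describe, rank and filter within a list; its depth is unknown. Positions in the deposited lists, of unit other, were used as given. Files of the negative control were not analysed here.

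The members, gene classes and families were chosen with earlier results of these data known. The rule also leaves out 1 listed locus by name; its annotation holds none of the 7 words, so the count of 62 is the same with and without this step. Classes were set by reading the annotation. All 62 loci were found in the RefSeq gene table of TAIR10.1, which gave symbols and biotypes but no coordinates. The 10 families came from its symbols and synonyms, with 10 like-named loci removed; pectate lyases and pectinesterase inhibitors were not kept as families because too few carried such symbols. Shares of families were set beside 27444 protein-coding genes.

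A locus was tied to a peak by chromosome and score; where several peaks shared a score, the order of locus numbers within 10000 bp chose 1. Score alone tied 31 of 48 PI and 26 of 40 AP3 members, and all were tied in the end. Of the ties fixed by a unique score, 2190 of 2192 for PI and 1523 of 1525 for AP3 lay inside the interval expected from locus order. The choice among peaks that share a score was not itself checked. The functions were tested on simulated data. Intervals of shares are 95% Clopper-Pearson (exact) and reflect counting error over loci alone; loci that share a peak are not independent. No test between groups was possible with 1 library each.

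In each class the 3 members with the highest score were given in full (all in a class of 5 or fewer), then members listed for 1 factor above the list's median, and those whose positions in both lists were farthest apart, 5 each way (6 where loci tied); others were named or counted. Sequences and CArG boxes, the sites MADS-domain proteins bind, were not analysed here. Python 3.11.15, pandas 2.3.3, SciPy 1.17.1, NumPy 2.4.6 and matplotlib 3.10.9 were used.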

Additional observations from a re-analysis of the deposited data

How the results depend on the processing

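Of 88 recomputed values, 60 stayed within the limit set (1.5 times the main count, or the interval of a share), 28 moved and 0 reversed. With windows 0 to 1000 bp upstream and inside the gene only, 25 members were listed for PI, 20 for AP3 and 13 for both. With scores at or above the median of the peak list, 21, 16 and 11 were. Both alternatives keep fewer loci by construction. A reciprocal overlap of 50% gave 33.3% for PI and 42.5% for AP3, and the shares over all listed loci at this overlap are not given. Above the median score the share downstream was 4.76% for PI, and for AP3 it was 37.5% at 0 to 1000 bp upstream and 6.25% inside the gene; the cause was not tested. For the families taken by symbol, the listed share with the narrow windows was 0.0% for the polygalacturonases and beta-galactosidases in both lists. It was also 0.0% for the galacturonosyltransferases in the PI list. These families are small, with 10, 17 and 25 genes. No share of all protein-coding genes is given with the narrow windows. Polygalacturonases without such a symbol did have peaks there, AT4G33440 for PI and AT1G48100 for AP3. Above the median the listed share of the families was 0.0% for the cellulose synthases and family 9 glucanases in the PI list. The same held for the galacturonosyltransferases, xyloglucan synthesis genes and beta-galactosidases in both. It was 6.67% for the cellulose synthase-like family in the AP3 list, and 5.07% for PI and 3.69% for AP3 over all families, where 4.32% and 3.65% of all protein-coding genes remained. For the 5 members with an AP3 peak of their own the median position was 4.94% from the top of the AP3 list, against 57.8% for all members. For the 10 members with a PI peak of their own it was 47.9% from the top of the PI list, against 58.6%. No such position is given over all listed loci with a peak of their own. The 5 loci are few, and the cause was not tested. Without the loci matched through other text, a choice made after seeing the data, 41 of 54 members were listed for PI, 34 for AP3 and 21 for both. No paired analysis was possible because each factor has 1 library, and for the same reason no replicate could be left out. CArG boxes, strict or relaxed and in whole peaks or near maxima, were not searched, since no genome sequence was at hand. Unknown depth limits every listing: a locus absent from a list may have been bound below its threshold.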

Other observations

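The members were unevenly spread over the chromosomes by listing. Chromosome 5 held 19 members, of which 9 were listed for both factors, 10 for PI only and 0 for AP3 only. Of all 807 listed loci on this chromosome, 402 were listed for both, 269 for PI only and 136 for AP3 only. Chromosome 3 held 12 members, with 2 listed for both, 4 for PI only and 6 for AP3 only. Of all 610 listed loci there, 302 were listed for both, 162 for PI only and 146 for AP3 only. Some of these members share a peak and are counted separately. They are RHS12 and AT3G10720, and BGLU27 and BGLU16, on chromosome 3, and AT5G62350 and AT5G62360 on chromosome 5. The spread over chromosomes was not tested, and the split was chosen after its values were seen.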
